A study of Mus musculus with 12 samples.

Results

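The collagen genes are the 44 protein-coding genes of the deposited expression table whose symbols have the form Col, a number, the letter a and a number, such as Col1a1. They were picked by name, out of 54345 genes in all and 22058 protein-coding genes, and no value admitted or removed a gene. The family itself was chosen with earlier results of these data known. By the supramolecular structure that their proteins form, 11 encode chains of fibril-forming collagens, 6 chains of the basement membrane network, 6 chains of beaded filaments, 9 fibril-associated collagens (FACIT), 3 short-chain network collagens, 4 transmembrane collagens, 2 multiplexins and 1 the anchoring fibril collagen, while 2 belong to none of these classes. Col1a1 and Col3a1, the genes usually taken to mark collagen-producing cells, were read in every library.

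The libraries were prepared from poly(A) RNA of wild-type H9c2(2-1) cells, a line from embryonic heart, with 3 libraries in each of 4 groups. Unt cells were untreated, DOX cells received doxorubicin, D_DXZ cells received doxorubicin together with dexrazoxane, and D_MgHCF cells received doxorubicin together with magnesium hexacyanoferrate nanocatalysts, in each case for 6 h. Doxorubicin is an anthracycline that damages the heart, dexrazoxane is the iron chelator given clinically against that damage, and the nanocatalysts were made to bind ferrous iron. The doses used for the sequenced cells are not given in the sources used here, so whether D_DXZ and D_MgHCF were given at matched doses is not known.

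Collagens are secreted proteins of the extracellular matrix in which chains wind around each other into a helix, and glycine recurs as the first residue of each triplet because only its small side chain fits inside. Chains are hydroxylated and folded in the endoplasmic reticulum, exported as procollagen, trimmed outside the cell and cross-linked by lysyl oxidases. In the heart, fibroblasts are the main source of the fibril-forming types I and III, which give the wall its stiffness, and type IV forms the basement membrane around cardiomyocytes.

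The deposited level of a gene in a library is its FPKM, which counts fragments against gene length and library size. Reads assigned to genes, recovered as whole numbers from the FPKM, ranged from 16626514 to 19365119 per library. The labels name the organism as mouse and the study describes the cells as rat, while the genes and coordinates are those of mouse build GRCm38. Levels of different collagens therefore also depend on how well the reads matched each mouse gene, which was not tested, whereas comparisons of 1 gene between groups share this matching. The cells are labelled as myoblasts, but none of 6 skeletal myoblast markers and none of 7 cardiomyocyte markers reached a mean FPKM of 1, and the 6 myoblast markers summed to at most 1.60 FPKM in any library. Of 7 fibroblast or mesenchymal markers, 4 reached that level (Vim, Fn1, S100a4 and Pdgfrb). Endothelial and epithelial markers did not reach it either (0 of 5 and 0 of 4), and 1 of 4 immune markers did. The labels do not say whether the 3 libraries of a group came from separate cultures, so p-values measure only the spread between these libraries. In bulk RNA, fewer cells that express a gene and less RNA of it per cell cannot be told apart.

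The triplet repeat is written into the structure of the genes. In GENCODE M21 (GRCm38), whose coordinates were identical for all 44 members, 469 of the 2005 coding exons of the collagen genes (23.4%) are exactly 54 bases long, the length of 18 codons, against 0.445% of the coding exons of 21822 other genes. The share is 47.0% in the fibril-forming class, 25.2% in the FACIT class and 4.05% in the basement membrane class, whose repeat is interrupted. For 4 members on which the results below turn, an exon is shown 5′ to 3′, with the 6 glycine codons in capitals. It is the first 54-base exon that begins in frame and has glycine as the first residue of each triplet and nowhere else.
Col1a1: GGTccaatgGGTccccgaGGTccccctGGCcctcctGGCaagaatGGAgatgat
Col1a2: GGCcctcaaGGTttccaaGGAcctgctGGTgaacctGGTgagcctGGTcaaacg
Col3a1: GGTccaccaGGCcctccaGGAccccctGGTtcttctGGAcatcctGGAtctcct
Col11a2: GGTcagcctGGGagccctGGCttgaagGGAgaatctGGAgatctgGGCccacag
They lie at chr11:94940118-94940171, chr6:4515481-4515534, chr1:45325360-45325413 and chr17:34051480-34051533, all on the plus strand. They are exon 9 of 51 in Col1a1, exon 8 of 52 in Col1a2, exon 6 of 51 in Col3a1 and exon 15 of 66 in Col11a2. The choice of exon thus fixed the register of the glycine codons. The positions between them differ among the 4 exons. No transcript of another gene was at least 95% identical to any of the 17 higher expressed collagens over 150 bases or more.

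Of the 44 collagen genes, 17 had a mean of at least 1 FPKM over the 12 libraries, 14 of at least 10 and 6 of at least 100, while 10 lay between 0.1 and 1 and 17 under 0.1. No member was without reads in every library, and 8 had 0 reads in every Unt library. The 17 higher expressed genes made up 98.7% to 99.9% of the summed collagen FPKM of a library. Per length, Col5a2 and Col6a1 led in Unt (102 ± 0.274 and 98.7 ± 2.77 FPKM, SD, n = 3), and the leading 4 with Col8a1 and Col12a1 accounted for 54.2% to 56.3% of the summed collagen FPKM in the Unt libraries. Col1a1, Col1a2 and Col3a1, the chains of the bulk collagens of heart and skin, were lower, with 19.98 ± 0.920, 27.8 ± 2.35 and 15.6 ± 0.175 FPKM. Such ranks, and ratios between genes, rest on the gene lengths used, 6563 bases for Col1a1 and 12426 for Col1a2. In reads, Col1a2 had 7848 to 8952 in the Unt libraries and Col1a1 3093 to 3371. In Unt, Col8a1 (82.4 ± 5.38) and Col12a1 (77.7 ± 2.72) lay within their spread of each other, as did Col5a1 (46.9 ± 2.98) and Col4a1 (44.3 ± 3.33) and again Col4a1 and Col4a5 (42.9 ± 0.145).

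**Figure D1:**
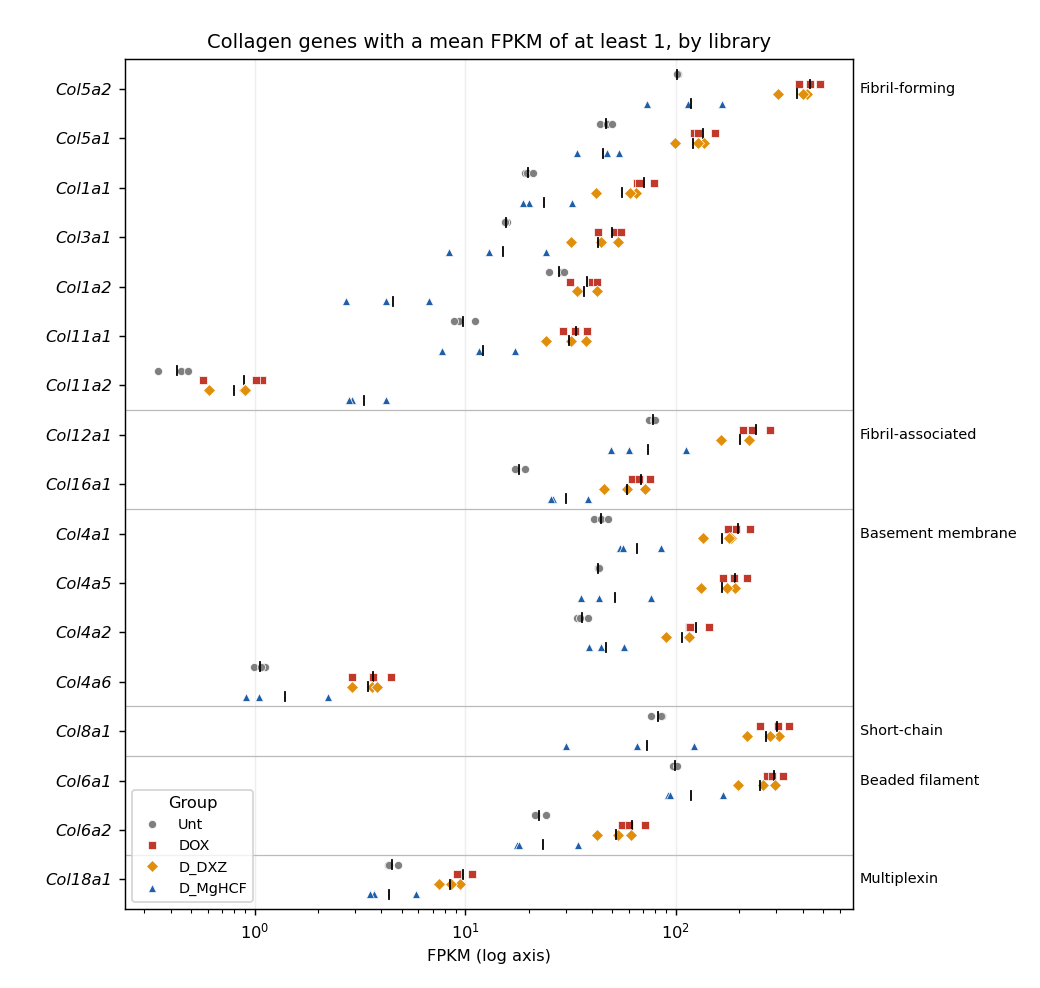
FPKM of the 17 collagen genes with a mean of at least 1 (log axis), 1 symbol per library and a black tick at each group mean (n = 3), ordered by class. In 16 of the 17 rows the D_MgHCF symbols lie left of the DOX symbols, while Col11a2 shows the opposite order and Col1a2 falls far below its Unt level in D_MgHCF.

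Collagen reads as a share of all reads assigned to genes do not depend on the scaling of a library. They made up 0.726% to 0.729% of reads in Unt, 1.21% to 1.34% in DOX and 1.14% to 1.35% in D_DXZ. In D_MgHCF the shares were 1.02%, 0.701% and 0.585% in replicates 1, 2 and 3. All DOX and D_DXZ libraries lay above all Unt libraries, and the D_MgHCF libraries lay on both sides of Unt. The exact permutation test between 2 groups of 3 libraries cannot give a p under 0.1.

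**Figure D2:**
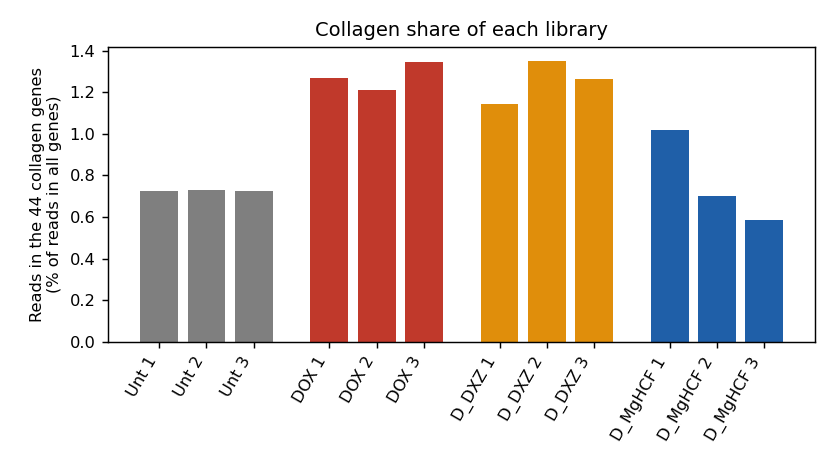
Reads in the 44 collagen genes as a percentage of reads in all genes, 1 bar per library, with the axis starting at 0. The 3 Unt bars stand between 0.726% and 0.729%, the DOX and D_DXZ bars between 1.14% and 1.35%, and the D_MgHCF bars run from 0.585% to 1.02%.

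To ask how the collagen genes responded to doxorubicin, log2(FPKM + 1) was compared between DOX and Unt with limma, and a gene was called at a Benjamini-Hochberg adjusted p under 0.05 over the 25044 genes tested. Of the 40 collagen genes that could be tested, 18 were called higher and 0 lower in DOX. Over all genes tested, 18.6% were called higher and 19.9% lower. Among the 17 collagens with a mean of at least 1 FPKM, 15 were higher and 0 lower, against 36.7% and 33.3% of all genes at that level, with log2 fold changes from 0.97 to 2.14. The median of the 17 was 1.61, and that of all genes at that level was 0.05. At an unadjusted p under 0.05, 21 collagens were higher and 1 was lower (21% and 22.7% of all genes tested). With voom on the recovered reads 23 were higher and 0 lower, and the share of all genes called by voom is not given here. The voom median of the 17 was 1.76, against 0.07 for all genes at that level.

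This result is relative to the scaling of the libraries. The deposited FPKM hold a factor that sets the median gene equal between libraries, and dividing by summed values instead (TPM) moved the median of all genes with a mean of at least 1 FPKM from 0.05 to -1.18 and that of the 17 collagens from 1.61 to 0.34. The distance of the collagens from the median gene was 1.56 with the deposited FPKM, 1.52 with TPM, 1.38 with FPKM over the summed reads, 1.69 with voom and 0.58 with quantile normalization. All 17 lay above the median gene under these scalings, except under quantile normalization, where 15 did. In absolute calls, TPM left 6 collagens higher (Col5a2, Col4a1, Col4a5, Col4a2, Col16a1 and Col1a1) and made 4 lower (Col1a2, Col2a1, Col5a3 and Col6a4), where 4.44% of all genes tested were higher and 40.8% lower. Increases given below are those of the deposited FPKM, and an increase of a collagen is an increase against the median gene.

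**Figure D3:**
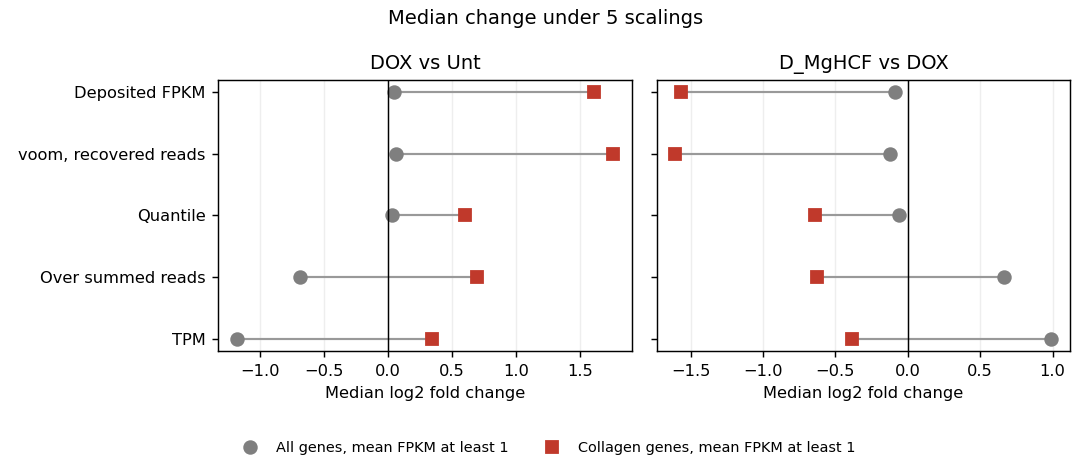
Median log2 fold change of the 17 collagen genes (squares) and of all 11515 genes with a mean of at least 1 FPKM (circles) under 5 scalings, for DOX vs Unt and D_MgHCF vs DOX. The circles move from 0.05 to -1.18 and from -0.09 to 0.99, and the squares stay right of the circles in the first panel and left of them in the second.

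Among the 17 genes, the basement membrane chains Col4a1 and Col4a5 had the highest log2 fold changes in DOX. Col4a1, a chain of the ubiquitous type IV network (chr8:11198423-11312826), was read at 41.1, 44.002 and 47.7 FPKM in Unt and at 177, 194 and 224 FPKM in DOX. The mean rose 4.49-fold, with a log2 fold change of 2.14 ± 0.184 (SE, limma adjusted p = 1.5e-05). Its partner Col4a2 (chr8:11312805-11449287) rose by 1.77 ± 0.157 and Col4a5, which is mutated in hereditary nephritis with deafness (chrX:141475385-141689234), by 2.12 ± 0.244. Col4a6 lies head to head with Col4a5, its start site 1309 bases away, and was the lowest of the 4, with 1.12, 0.989 and 1.08 FPKM in Unt and 2.91, 3.66 and 4.45 in DOX. For each of these 4 chains every DOX library was above every Unt library. Col4a1 and Col4a2 start 21 bases apart on opposite strands, and the library kit does not mark strand, so reads in this short overlap could be assigned to either gene.

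Of the fibril-forming genes, Col5a2, a chain of the type V collagen that limits fibril diameter (chr1:45374321-45503282), had the highest mean level. It was read at 102 FPKM in each of the Unt libraries and at 385, 432 and 483 FPKM in DOX, with a log2 fold change of 2.07 ± 0.253 (adjusted p = 8.9e-05 by limma). Col5a1 rose by 1.5 ± 0.177 and Col11a1, a minor fibril chain best known from cartilage, by 1.67 ± 0.247. Col1a1 (chr11:94936224-94953042), which contributes most of the type I helix, was read at 19.3, 19.7 and 21.02 FPKM in Unt and at 65.6, 67.0 and 79.1 FPKM in DOX, a log2 fold change of 1.77 ± 0.206 (limma adjusted p = 6.8e-05). Col3a1 (chr1:45311538-45349706), whose protein forms the fine fibrils of distensible tissue, was read at 15.8, 15.5 and 15.5 FPKM in Unt and at 42.8, 51.2 and 55.2 FPKM in DOX. Its log2 fold change was 1.61 ± 0.304 (limma adjusted p = 0.00151). In all of these genes the DOX and Unt libraries did not overlap.

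The network, filament and FACIT genes with a mean of at least 1 FPKM were also called higher. Col8a1, a short-chain collagen made by vascular and stromal cells (chr16:57624258-57754737), was read at 86.0, 85.0 and 76.2 FPKM in Unt and at 251, 306 and 346 FPKM in DOX, with a log2 fold change of 1.85 ± 0.390. Col16a1 and Col12a1, which bind fibril surfaces, rose by 1.86 ± 0.182 and 1.60 ± 0.261. Col6a1 and Col6a2, chains of the beaded filaments that anchor cells to the matrix, rose by 1.56 ± 0.226 and 1.43 ± 0.232, where quantile normalization gave -0.02 for Col6a1. Col18a1, a multiplexin from which endostatin is cleaved, rose by 0.97 ± 0.156, while TPM gave -0.23, and it overlaps Slc19a1 on the opposite strand. Col5a1 overlaps 2 processed transcripts on the opposite strand, and without strand their reads cannot be told apart. Below 1 FPKM, the anchoring fibril gene Col7a1, the transmembrane Col17a1 of hemidesmosomes and Col6a3 were called higher in DOX, with log2 fold changes of 0.35, 0.31 and 0.24.

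Col1a2 and Col11a2 were the 2 of the 17 genes not called in DOX. Col1a2, the other chain of type I collagen (chr6:4504814-4541544), was read at 25.1, 28.8 and 29.5 FPKM in Unt and at 31.3, 39.9 and 42.3 FPKM in DOX. The DOX libraries lay just above the Unt libraries, with a log2 fold change of 0.42 ± 0.227 (limma adjusted p = 0.191), and TPM gave -0.92 (adjusted p = 0.00131 by limma), FPKM over the summed reads -0.50 and quantile normalization -0.39. In reads, Col1a2 had 7848, 8562 and 8952 in Unt and 5913, 6356 and 6079 in DOX. Col11a2, a minor fibril chain of cartilage (chr17:34039437-34066685), was read at 0.448, 0.483 and 0.347 FPKM in Unt and at 1.08, 1.02 and 0.569 FPKM in DOX, a log2 fold change of 0.40 ± 0.167 (limma adjusted p = 0.0935), while TPM gave -0.20. Other processing called Col11a2 higher, with 1.04 by voom (adjusted p = 0.0221) and 0.52 by quantile normalization (limma adjusted p = 0.0424).

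**Figure D4:**
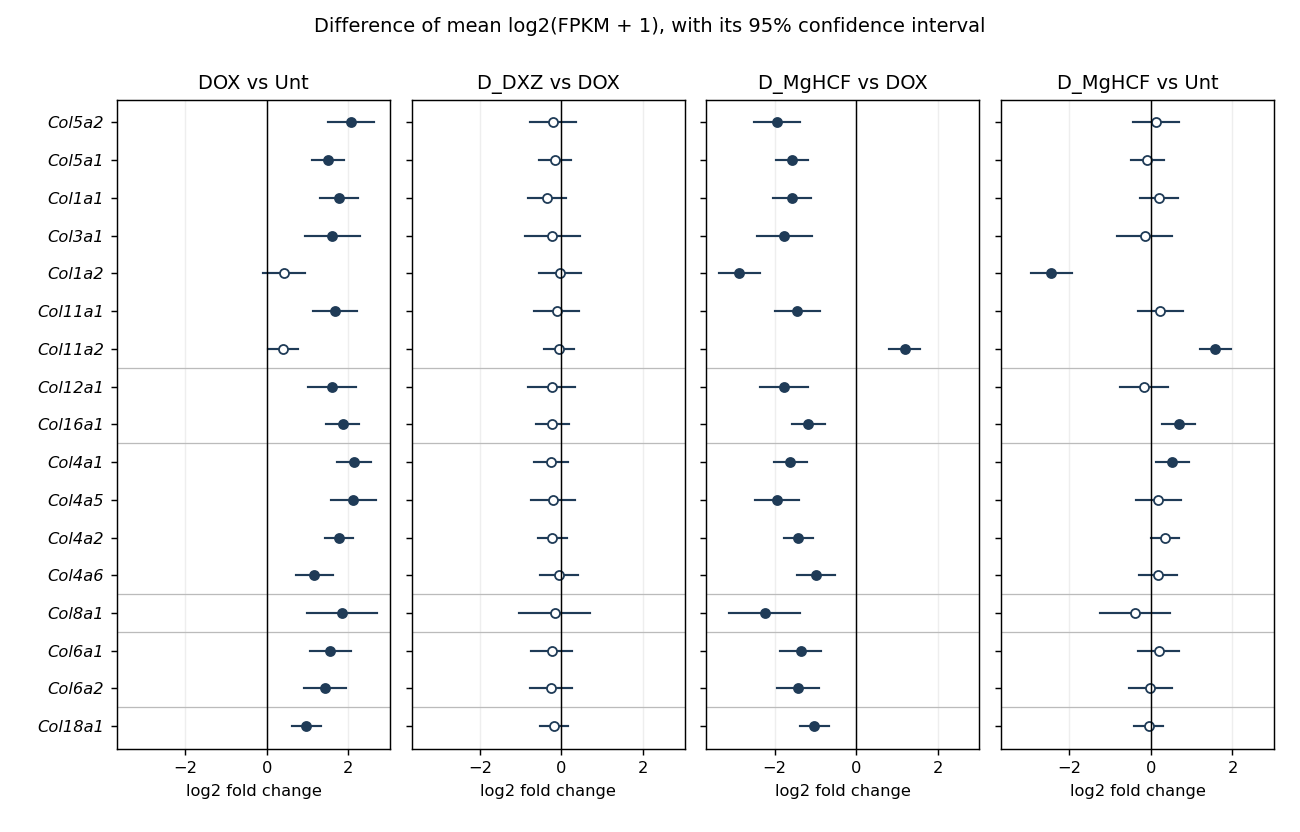
Differences of the group means of log2(FPKM + 1) for the 17 collagen genes in 4 comparisons, with 95% confidence intervals from limma and filled circles at an adjusted p under 0.05. DOX vs Unt has 15 filled circles, all on the right, D_DXZ vs DOX none, and D_MgHCF vs DOX 16 on the left and Col11a2 on the right, but with TPM Col1a2, Col11a2 and Col18a1 turn negative in DOX vs Unt and Col16a1 and Col18a1 turn positive in D_MgHCF vs DOX, with quantile normalization Col6a1 turns in both and Col1a2 in DOX vs Unt, and with FPKM over summed reads Col1a2 turns in DOX vs Unt.

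Adding dexrazoxane to doxorubicin did not give a detectable change in any collagen gene. Between D_DXZ and DOX, 0 of 40 collagen genes were called by limma at an adjusted p, 0 at an unadjusted p under 0.05 and 0 with voom. Over all genes tested 0 were called higher and 0 lower (0% each), and 4.56% were higher and 4.97% lower at an unadjusted p. The paper tested these libraries in another way. It reports that dexrazoxane reversed some of the genes raised and some of those lowered by doxorubicin. The counts of 0 given here are therefore those of limma with 3 libraries a group, and the reason for the difference was not tested. By limma, the 17 collagens with a mean of at least 1 FPKM had log2 fold changes between -0.36 and -0.04. All were below 0, while quantile normalization gave a median of 0.02. The 95% confidence intervals reached from -1.03 to 0.71 over the 17 genes. Both ends were those of Col8a1, which had the largest standard error of the 17 (0.390). Other intervals were narrower, such as -0.57 to 0.12 for Col4a2 and -0.53 to 0.17 for Col18a1. The size of change that could go unseen therefore differed between genes. Col1a1, at 42.0, 64.5 and 60.5 FPKM in D_DXZ, had the lowest value, -0.36 with an interval from -0.81 to 0.10, and its 3 D_DXZ libraries lay below those of DOX, replicate 1 farther than the others. For Col3a1 and Col5a2 D_DXZ replicate 1 lay below the DOX libraries and replicates 2 and 3 lay among them. In D_DXZ, 17 collagen genes stood above Unt and 0 below (15.9% and 18% of all genes tested). At an unadjusted p 19 were higher and 0 lower (18.7% and 21.7%). Voom gave 18 and 0, without a share of all genes to set beside them, and a median of 1.45 for the 17 against -0.03 for all genes at that level. Of the genes with a mean of at least 1 FPKM, 15 were higher, again without Col1a2 and Col11a2, where 31.9% of all genes at that level were higher and 31.5% lower, and Col7a1 and Col17a1 made up the rest. TPM left 5 higher and 3 lower (3.65% and 40.3% of all genes tested). Col4a1 was highest, with a log2 fold change of 1.88 ± 0.184 (limma adjusted p = 7.12e-05). DOX and D_DXZ were compared with the same Unt libraries.

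With the nanocatalysts, 16 of the 17 higher expressed collagen genes were lower than with doxorubicin alone. Between D_MgHCF and DOX, 17 of 40 collagen genes were lower and 10 higher (20.1% and 31.4% of all genes tested), so the share of collagens called higher was below that of all genes. Of the 18 collagens called higher in DOX, Col17a1 was higher still in D_MgHCF (0.21, limma adjusted p = 0.0303) and Col7a1 was not called (-0.17, limma adjusted p = 0.108). Of the 17 genes with a mean of at least 1 FPKM, 16 were lower and Col11a2 was higher, where 40.1% of all genes at that level were lower and 33.5% higher. Their median was -1.57, against -0.09 for all genes at that level. TPM moved these medians to -0.38 and 0.99 and gave 16 collagens higher and 9 lower (53.9% and 6.75% of all genes tested), and 16 of the 17 collagens lay below the median gene under every scaling run except quantile normalization, with 15. The DOX libraries are shared with the comparison against Unt, so a DOX value that is high by chance would add to both the increase and the decrease.

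Col8a1 was lower by 2.24 ± 0.390 on the log2 scale (limma adjusted p = 0.000793), at 122, 65.7 and 30.1 FPKM in D_MgHCF. Col5a2 was read at 166, 114 and 73.2 FPKM, a log2 fold change of -1.94 ± 0.253 (limma adjusted p = 0.00012). Col4a1 was read at 85.4, 54.6 and 56.2 FPKM, a log2 fold change of -1.61 ± 0.184. Every D_MgHCF library of these genes was below every DOX library, and D_MgHCF replicate 1 was the highest of the group in each. Col1a1 was read at 32.3, 20.1 and 18.8 FPKM and Col3a1 at 24.2, 12.9 and 8.41 FPKM in D_MgHCF, with log2 fold changes of -1.57 ± 0.206 and -1.76 ± 0.304. Those values surround the Unt values of both genes. The smallest decreases among the 16 were those of Col4a6, by 0.99 ± 0.208, Col18a1, by 1.03 ± 0.156, and Col16a1, by 1.17 ± 0.182, and TPM gave 0.02 for both Col18a1 and Col16a1. Quantile normalization gave 0.08 for Col6a1, which with the deposited FPKM was lower by 1.36 ± 0.226.

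Col1a2 fell past its untreated level. It was read at 6.70, 4.20 and 2.73 FPKM in D_MgHCF, with 1750, 1327 and 832 reads. The mean was 8.33-fold lower than in DOX and 6.12-fold lower than in Unt, with log2 fold changes of -2.86 ± 0.227 and -2.44 ± 0.227 (limma adjusted p = 7.68e-06 and 5.37e-05). All D_MgHCF libraries lay far below the libraries of the other 3 groups, and the decrease was called against each of them under the 5 scalings run. Leaving out single libraries gave values from -2.71 to -2.18 against Unt. Col11a2 moved the other way. It was read at 2.91, 4.21 and 2.82 FPKM in D_MgHCF, 7.77-fold the Unt mean, with log2 fold changes of 1.58 ± 0.167 against Unt and 1.19 ± 0.167 against DOX (limma adjusted p = 9.95e-05 and 0.0002). These libraries held 417, 732 and 472 reads of it, against 45 to 112 in the 9 others, and the increase over each other group was called under the 5 scalings run.

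Against Unt, 12 collagen genes were higher and 1, Col1a2, was lower in D_MgHCF (24.3% and 15.7% of all genes tested). Of the 17 with a mean of at least 1 FPKM, Col11a2, Col16a1 (log2 fold change 0.68 ± 0.182, limma adjusted p = 0.0142) and Col4a1 (0.53 ± 0.184, limma adjusted p = 0.0439) were higher. Of all genes at that level 22.5% were higher and 29% lower. The median of the 17 was 0.18, against -0.08 for all genes at that level. TPM gave 14 collagens higher and 1 lower (26.6% and 19.2% of all genes tested). The call of Col4a1 was lost in 9 of the 12 fits that left out a library, and its value was 0.32 without D_MgHCF replicate 1. Without that library, 3 collagens were lower than in Unt, Col1a2, Col8a1 (-0.87) and Col12a1 (-0.51). For Col5a2, Col1a1, Col3a1, Col5a1, Col6a1 and Col6a2 the D_MgHCF libraries lay on both sides of the Unt libraries, and the spread of the D_MgHCF group was wider, as in Col3a1 with an SD of 8.14 against 0.175 FPKM. Against D_DXZ, 16 collagen genes were lower and 10 higher in D_MgHCF (19% and 29.4% of all genes tested). Among the 17, 16 were lower and 1 higher, where 38% of all genes at that level were lower and 30.4% higher, and TPM gave 7 lower and 15 higher among the 40 (6.23% and 51.1%). Col1a2 was lower by 2.82 ± 0.227 and Col11a2 higher by 1.25 ± 0.167, and the doses of the agents are not known to match.

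Of the 23 tested collagens with means under 1 FPKM, 9 were higher and 1, Col6a3, was lower in D_MgHCF against DOX, where 29.6% of all genes at that level were higher and 3.02% lower. These 9 are described without being set apart from other scarce genes, and of all 40 collagens quantile normalization left 3 higher and a 2-fold minimum 2. Col27a1, a fibril-forming collagen of cartilage, was read at 0.0610, 0.0513 and 0.0409 FPKM in Unt and at 0.998, 1.63 and 1.53 FPKM in D_MgHCF. That corresponds to 13 to 20 reads per Unt library and 273, 540 and 490 reads per D_MgHCF library, and the log2 fold change against DOX was 0.93 ± 0.101 (limma adjusted p = 4.02e-05). Col9a3, a FACIT chain of cartilage fibrils, was read at 0.828, 0.856 and 1.10 FPKM in D_MgHCF and at 0.113, 0.227 and 0.159 FPKM in Unt. Col20a1, another FACIT gene, was read at 2.21, 2.21 and 0.357 FPKM in D_MgHCF, so D_MgHCF replicate 3 lay level with the highest DOX library, at 0.359 FPKM. Col2a1, the main cartilage collagen, rose from 0.0999 ± 0.0259 FPKM in Unt to 0.329 ± 0.0501 FPKM, with 65 to 76 reads per library. The others called higher against DOX were Col17a1, Col8a2, Col6a4, Col15a1 and Col4a3. The pseudocount of 1 shrinks the fold changes of genes this low. Other collagens of cartilage did not rise in this way between D_MgHCF and DOX. Col11a1 was lower (log2 fold change -1.44 ± 0.247, limma adjusted p = 0.000721), and Col9a2 (0.075) and Col10a1 (0.021) were not called. The 4 cartilage markers used for comparison (Acan, Sox9, Matn1 and Comp) summed to 4.46 to 11.9 FPKM in D_MgHCF and to 1.91 to 2.39 FPKM in Unt, most of it Sox9, while Acan stayed at or below 0.0829 FPKM in every library. Their part in these differences was not tested. The 4 collagens that were not tested had at most 5 reads each over all libraries.

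Ratios between collagen chains within a library are free of library scaling. Col1a1 over Col1a2 was 0.767, 0.684 and 0.713 in Unt, 2.09, 1.68 and 1.87 in DOX, 1.23, 1.91 and 1.43 in D_DXZ and 4.82, 4.78 and 6.90 in D_MgHCF. The Unt, DOX and D_MgHCF libraries formed 3 ranges that did not overlap, whereas D_DXZ overlapped with DOX. The ratio was 2.60-fold higher in DOX than in Unt and 7.52-fold higher in D_MgHCF than in Unt (exact permutation p = 0.1 each, two-sided, the smallest that 3 against 3 libraries can give). Type I collagen is usually assembled from both Col1a1 and Col1a2 chains, and RNA levels do not give the proportion of the chains in the protein. Col1a1 over Col3a1, by contrast, was 1.22 to 1.36 in Unt and 1.31 to 1.53 in DOX and overlapped between all groups.

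**Figure D5:**
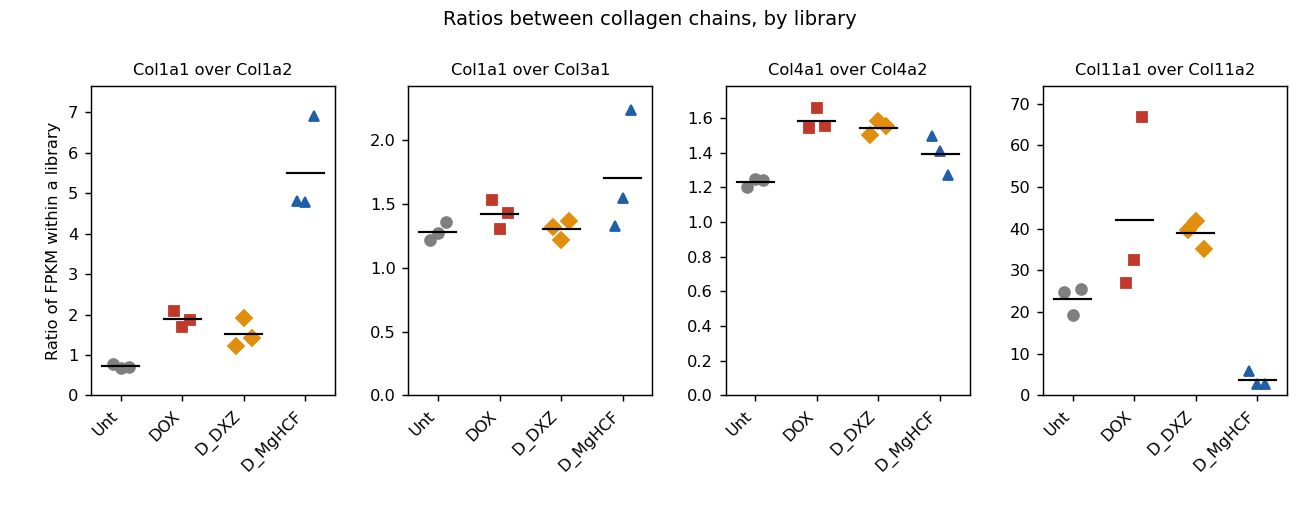
Ratios of FPKM between pairs of collagen chains within each library, with a bar at the group mean (n = 3) and axes starting at 0. Col1a1 over Col1a2 lies between 0.684 and 0.767 in Unt and between 4.78 and 6.90 in D_MgHCF, and Col11a1 over Col11a2 lies between 2.75 and 5.97 in D_MgHCF and at 19.3 or more in the other groups.

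In all, 8 ratios were compared over 6 pairs of groups, and since no exact p can fall below 0.1 none passes 0.05 before or after adjustment. The pairs were chosen with the values of these libraries known. Col11a1 over Col11a2 was 24.8, 19.3 and 25.6 in Unt and 5.97, 2.75 and 2.75 in D_MgHCF, and these groups did not overlap. Col4a1 over Col4a2, which share a start region, lay at or below 1.25 in the Unt libraries and between 1.54 and 1.66 in DOX, with D_MgHCF between 1.27 and 1.498. Col6a1 over Col6a2, neighbours on chromosome 10 with 85161 bases between them, lay between 4.23 and 5.22 in all libraries. Col5a1 over Col5a2 was 0.431 to 0.488 in Unt and 0.294 to 0.320 in DOX. Col3a1 and Col5a2 lie 24614 bases apart on chromosome 1, on opposite strands.

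The windows before the RefSeq starts of genes that behaved differently are shown for comparison, from RefSeq (GRCm38.p6), which held the 250 bases before the start of 14 of the 17 genes. Capitals mark matches on either strand to CCAAT (bound by NF-Y), to GGGCGG (bound by Sp1) and to TATAAA. Col3a1 was higher in DOX against Unt and lower again in D_MgHCF against DOX, Col1a2 was lower in D_MgHCF than in each other group, and Col11a2 was higher there. For Col1a2 the printed stretch ends where an annotated exon begins, 125 bases before the RefSeq start, and its CCAAT match lies in the rest of the window. The RefSeq start of Col1a2 lies downstream of the start given for the gene above, so this stretch is inside the gene as the expression table places it. For Col11a2 the printed stretch ends at 34039137, upstream of the gene start given above (34039437), and does not adjoin that start.
Col3a1: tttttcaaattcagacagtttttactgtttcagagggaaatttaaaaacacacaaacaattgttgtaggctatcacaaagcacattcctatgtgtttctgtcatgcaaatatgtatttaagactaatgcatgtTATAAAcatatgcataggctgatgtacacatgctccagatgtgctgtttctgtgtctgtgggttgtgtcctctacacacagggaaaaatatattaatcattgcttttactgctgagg
Col1a2: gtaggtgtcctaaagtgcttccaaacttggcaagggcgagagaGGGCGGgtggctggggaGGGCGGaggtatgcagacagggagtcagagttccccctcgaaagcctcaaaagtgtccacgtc
Col11a2: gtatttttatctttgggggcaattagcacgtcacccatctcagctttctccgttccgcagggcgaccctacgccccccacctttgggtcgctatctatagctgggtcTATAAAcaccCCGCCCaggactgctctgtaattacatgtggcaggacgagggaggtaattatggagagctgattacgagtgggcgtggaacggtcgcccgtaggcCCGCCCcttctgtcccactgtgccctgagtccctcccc
These are chr1:45311288-45311537, chr6:4505370-4505492 and chr17:34038888-34039137, all on the plus strand. In the Col3a1 window 35.2% of bases are G or C, against 57.6% for Col11a2. GGGCGG or its complement is present in the windows of 11 of the 14 genes, CCAAT in 7 and TATAAA in 2. Counted by window, 75%, 43.8% and 12.5% of the 16 windows of these genes hold them, against 32.7%, 33.8% and 12.4% of all 32851 windows. The sets of windows were not matched for G or C, which made up 35.2% to 76.4% of bases in the 16. The part of this in the shares was not tested, and the windows of Col6a2 overlap each other. The 2 genes with TATAAA are Col3a1 and Col11a2, which moved in opposite directions in D_MgHCF. A match is a description of letters and not a bound site.

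The genes that process and organise collagen were taken from lists of known members. Their counts are to be read against 18.6% higher and 19.9% lower of all genes tested in DOX vs Unt (36.7% and 33.3% of those with a mean of at least 1 FPKM), and against 31.4% higher and 20.1% lower in D_MgHCF vs DOX (33.5% and 40.1%). Of 22 genes that modify and fold chains in the endoplasmic reticulum, 17 were higher and 0 lower in DOX, with a median log2 fold change of 1.74 among the 18 with a mean of at least 1 FPKM, against 0.05 for all genes at that level, while D_MgHCF against DOX gave 15 lower and 1 higher. P4hb, a subunit of prolyl 4-hydroxylase, was read at 226 ± 14.6 FPKM in Unt, 1037 ± 134 in DOX and 379 ± 72.6 in D_MgHCF, and Crtap, which assists prolyl 3-hydroxylation, at 12.5 ± 1.201, 67.8 ± 9.59 and 19.3 ± 8.07 FPKM. Of 8 secretion genes 4 were higher and 1 lower in DOX, led by Sec23a of the COPII coat with a log2 fold change of 1.63 ± 0.120. Sec24d, its partner in cargo binding, was read at 12.1 ± 0.556 FPKM in Unt, 12.98 ± 1.48 in DOX and 3.58 ± 1.23 in D_MgHCF. Against DOX, 5 of the 8 secretion genes were lower and 2 higher in D_MgHCF. Among 7 tested genes of propeptide removal 6 were higher in DOX against Unt and the D_MgHCF libraries had 6 below DOX, among them Pcolce2, an enhancer of the procollagen C-proteinase, with 7.73 ± 0.769, 48.5 ± 8.54 and 10.7 ± 6.02 FPKM.

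All 6 cross-linking genes, each with a mean of at least 1 FPKM, were higher in DOX (36.7% of all genes at that level), and against DOX 5 were lower and 1 higher in D_MgHCF (40.1% and 33.5%). Lox, the lysyl oxidase that starts the cross-links, was read at 52.5 ± 2.49 FPKM in Unt, 386 ± 64.9 in DOX, 321 ± 66.0 in D_DXZ and 83.5 ± 40.4 in D_MgHCF, with a log2 fold change of 2.84 ± 0.320 in DOX (limma adjusted p = 5.48e-05). Loxl1, which serves elastic fibres, was lower in D_MgHCF than in DOX by 2.45 ± 0.176. Of 10 tested collagen receptors 4 were higher and 0 lower in DOX, against 18.6% and 19.9% of all genes tested. These 4 were among the 6 receptors with a mean of at least 1 FPKM (36.7% of all genes at that level were higher). They were led by Itgb1, the shared chain of the collagen-binding integrins, with 132 ± 5.85 FPKM in Unt, 580 ± 72.2 in DOX and 177 ± 66.7 in D_MgHCF. Ddr1, another of the 4, was read at 24.7 ± 1.86, 49.6 ± 2.89 and 43.9 ± 8.34 FPKM in these groups. Against DOX, 4 of the 10 receptors were lower and 1 higher in D_MgHCF (20.1% and 31.4% of all genes tested). Of 20 tested matrix proteins that organise fibrils 14 were higher and 0 lower in DOX, and D_MgHCF against DOX gave 14 lower and 1 higher. Of 14 partners of the basement membrane 9 were higher in DOX and, against DOX, 9 lower in D_MgHCF. Sparc, which binds collagen and is in both lists, was read at 280 ± 12.3, 1414 ± 176 and 394 ± 158 FPKM in Unt, DOX and D_MgHCF. Between D_DXZ and DOX 0 genes of these lists were called by limma.

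The regulators of collagen genes had more members lower than higher in DOX. Of 21 tested, 2 were higher and 12 lower in DOX, where 36.7% of all genes with a mean of at least 1 FPKM were higher and 33.3% lower. The median log2 fold change of the 19 regulators at that level was -0.75, against 0.05 for all genes, and D_MgHCF against DOX gave 12 higher and 2 lower (33.5% and 40.1% of all genes at that level). Cebpb, a factor known to act on Col1a1, fell from 48.96 ± 4.37 to 2.505 ± 0.894 FPKM in DOX, and Cyr61, a matricellular protein, from 75.0 ± 4.28 to 5.11 ± 2.78 FPKM. Ybx1, which is known to repress Col1a2, rose from 265 ± 18.6 to 1404 ± 153 FPKM in DOX and stood at 423 ± 99.6 FPKM in D_MgHCF. Ski, a co-repressor of SMAD proteins, was read at 25.7 ± 2.24 FPKM in Unt, 7.59 ± 2.54 in DOX and 32.8 ± 10.4 in D_MgHCF. Sox9, the factor that drives cartilage collagens, was read at 11.2, 9.31 and 4.18 FPKM in D_MgHCF and at 2.32 or less in all other libraries. Of the fibroblast markers, Vim was read at 870 to 1136 FPKM in DOX, 220 to 268 in Unt and 93.4 to 157 in D_MgHCF, and the 7 markers summed to 1462 to 1861, 457 to 525 and 285 to 505 FPKM in these groups. Dcn and Thy1, which mark fibroblasts, had means under 1 FPKM. The part of these genes in the collagen values was not tested.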

How the data were processed

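The authors sequenced poly(A) RNA of 12 libraries (NEBNext kit, paired-end reads) and deposited FPKM values of 54345 genes with mouse Ensembl identifiers. Per the labels, HISAT2 2.0.5 and GRCm38 were used. The counting program and annotation release are not given in the sources used here. FPKM times gene length were whole multiples of 1 step per library, which gave back whole reads for 100% of the values within a tolerance of 0.001. That step holds a median-ratio factor, 1.32 to 1.38 times the total reads in Unt and 0.647 to 0.784 times in DOX.

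Groups followed the labels. log2(FPKM + 1) was tested with limma 3.58.1 (trend, R 4.3.3) in 1 fit over 4 groups with no covariate, for 6 comparisons, two-sided, over the 25044 genes that had a nonzero FPKM in 3 libraries or more, and called at a Benjamini-Hochberg adjusted p under 0.05. limma was tested on simulated data. Alternatives were another pseudocount, filter, call rule, scaling (TPM, quantile, summed reads), voom on recovered reads, fits of 2 groups, a replicate block and leaving out each library. Ratios used exact permutation tests (SciPy 1.17.1). Sequences came from GENCODE M21 and RefSeq, and copies were searched with BLAST 2.17.0. Named were the collagens with a mean of at least 1 FPKM, further members where few were counted, and per list the 4 largest called changes in DOX vs Unt and in D_MgHCF vs DOX, of which some are printed. The chain pairs, Vim and the scarce collagens printed were chosen after their values were seen. Cyr61 is the name the table gives to Ccn1. The members and lists were chosen with earlier results of these data known. Precision is limited by 3 libraries a group.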

Additional observations from a re-analysis of the deposited data

How the results depend on the processing

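The 102 gene values (17 collagens in 6 comparisons) were recomputed under 23 alternatives. Of 2346 values, 88 lost their call, 14 gained one and 12 called values changed sign, while 56 values called in neither fit changed sign. Changed signs came from TPM for Col1a2 in DOX vs Unt (-0.92) and D_DXZ vs Unt (-0.78), for Col18a1 in DOX vs Unt (-0.23), D_DXZ vs Unt (-0.25), D_MgHCF vs DOX (0.023) and D_MgHCF vs D_DXZ (0.043) and for Col16a1 in D_MgHCF vs DOX (0.017) and vs D_DXZ (0.071). They came from quantile normalization for Col6a1, with -0.025 and -0.0058 in DOX and D_DXZ vs Unt and 0.075 and 0.056 in D_MgHCF vs DOX and vs D_DXZ. The causes were not tested.

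Counts of called collagens moved by over 1.5 times as follows. With TPM, DOX vs Unt gave 6 higher and 4 lower in place of 18 and 0, D_DXZ vs Unt 5 and 3 in place of 17 and 0, D_MgHCF vs DOX 16 and 9 in place of 10 and 17, and D_MgHCF vs D_DXZ 7 lower in place of 16. With FPKM over the summed reads, DOX vs Unt gave 1 lower, D_DXZ vs Unt 11 higher and 1 lower, and D_MgHCF vs DOX 11 lower. With quantile normalization 3 were higher in D_MgHCF vs DOX and 3 vs D_DXZ. A filter at FPKM of at least 1, which removes the scarce genes, left 3 higher in D_MgHCF vs Unt, 1 vs DOX and 1 vs D_DXZ, and a 2-fold minimum left 3, 2 and 3. Fits of 2 groups alone gave 1 lower in DOX vs Unt, and 7, 5 and 5 higher in D_MgHCF vs Unt, DOX and D_DXZ. An unadjusted p gave 1 lower in DOX vs Unt. Shares of all genes called are given above for TPM and the unadjusted p only. The counts under the other alternatives are therefore not set against such a share.

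Leaving out 1 library gave 18 to 20 higher and 0 lower in DOX vs Unt, 16 to 18 and 0 in D_DXZ vs Unt, 8 to 14 and 1 to 3 in D_MgHCF vs Unt, 7 to 10 and 16 to 17 in D_MgHCF vs DOX, and 8 to 10 and 16 to 17 in D_MgHCF vs D_DXZ. The 3 lower in D_MgHCF vs Unt came without D_MgHCF replicate 1. Whether the replicate numbers pair the libraries could not be settled with 3 libraries a group. Correlations of same-numbered deviations ran from -0.41 to 0.42, with 7 of 12 libraries nearest to their own number. With the number as a block, 18 collagens were higher in DOX vs Unt, 11 were higher in D_MgHCF vs Unt, and no count moved by over 1.5 times. Members under 1 FPKM rest on few reads, and smaller changes in them were not detectable at this depth.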
